A study of Mus musculus with 18 samples.

Results

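NADPH-producing dehydrogenases, among them Idh1, were followed in mouse brown adipocytes in which the lipase co-activator ABHD5 was knocked down or restored and which were then stimulated for 3 h. The set was given by gene symbol as 9 genes, Idh1, Idh2, Me1, Me2, Me3, G6pdx, Pgd, H6pd and Nnt. Of these, 8 had a row in the deposited table of 17672 genes and all 8 passed the filter on low counts, and G6pdx was not analysed here. The set was chosen by way of Idh1, selected on its lower counts with SR-3420 in doxycycline-treated cells and on the difference of that response from the one without doxycycline, so the SR-3420 values with doxycycline, and the difference between the SR-3420 responses with and without it, are given as descriptions with no p-value. The SR-3420 values without doxycycline, and the DMSO values of Idh1, enter that difference as well. No p-value is given for SR-3420 against DMSO in any gene, and the counts of calls there are printed beside the share of all genes with nothing read from them.

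NADPH is the reduced cofactor that fatty acid synthesis, sterol synthesis and the glutathione and thioredoxin systems consume. The cytosol regenerates it through the oxidative pentose phosphate pathway (G6pdx, glucose-6-phosphate dehydrogenase, and Pgd, 6-phosphogluconate dehydrogenase), through Idh1, which oxidises isocitrate to 2-oxoglutarate, and through Me1, which decarboxylates malate to pyruvate. In mitochondria Idh2 and Me3 carry out the matching NADP-linked reactions, Me2 works mainly with NAD, and Nnt, a transhydrogenase of the inner membrane, passes hydride from NADH to NADP. H6pd opens a separate pentose phosphate route inside the endoplasmic reticulum. In adipocytes these enzymes are best known for supplying lipogenesis.

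The cells were a mouse brown preadipocyte line differentiated into adipocytes, and every library came from cells that stably expressed a short hairpin RNA against Abhd5 and held an mCherry-tagged, hairpin-resistant ABHD5 under a doxycycline-inducible lentiviral promoter. Cells without doxycycline (Dox), whose genotype is labelled ABHD5 KD, are called knockdown cells. Cells given 1 µg/ml Dox, labelled WT, are called rescued cells, and their ABHD5 is the induced transgene. Each kind received DMSO vehicle, 10 nM isoproterenol (ISO), a β-adrenergic agonist, or 20 µM SR-3420, a synthetic ABHD5 ligand, which gave 6 groups of 3 libraries. Rescued and knockdown cells differed in Dox exposure as well as in ABHD5, and these cannot be told apart.

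Library totals ran from 689910 to 1956565 counts with a median of 1145729. The counted length of a gene was within 10% of its annotated intron length for 72.6% of 16536 matched genes and within 10% of its exon length for 2.27%, which points to counting over introns. The study's methods, however, name the gene option of iRNA-seq. Which bases were counted, and so the share of spliced and unspliced RNA in a value, could not be settled, and the values are called counts. Abhd5 itself had 53, 41 and 54 counts in the DMSO knockdown libraries and 1211, 630 and 431 with Dox, a log2 fold change of 3.46 (SE 0.17, adjusted p = 2.44e-14, edgeR quasi-likelihood test). Abhd5 also rose with ISO, from 52.6 ± 4.71 to 149 ± 21.9 counts per 1000000 scaled counts (CPM; SD, n = 3) in knockdown cells (log2 1.50, adjusted p = 3.34e-07) and from 574 ± 86.1 to 827 ± 28.5 CPM in rescued cells (0.52, adjusted p = 0.00502), with a difference of -0.98 (adjusted p = 0.0194, edgeR). It was thus not constant across the knockdown groups, and its part in the ISO results was not tested. Since the counted bases are open, the rise with Dox does not tell transgene from native Abhd5. The library of SR-3420 with Dox replicate 1 stood apart, with 35.6% of its counts in its 10 most abundant genes, and the log2 values and group means that rest on it are given with and without it for the genes described in detail, but not every count of list genes. The defining muscle genes Myod1, Myog and Myf5 were at 0 in every group. Of the other muscle markers, Ckm reached at most 1.76 CPM, and Des, at 13 to 36.1 CPM, was detected in every library. The summed level of 5 macrophage markers stayed between 4.5 and 20.2 CPM. The summed level of 9 adipocyte markers was 2415 to 2877 CPM in DMSO knockdown cells, 3427 to 3668 with ISO, 3456 to 3761 with SR-3420, 2844 to 3331 in DMSO rescued cells, 5177 to 5525 with ISO and Dox, and 4051 to 5187 with SR-3420 and Dox. The summed level of 4 endothelial markers was 17.3 to 25.8 CPM in the ISO groups and 5.34 to 16.2 in the others. That sum was mostly Tek, with a median of 9.06 CPM over the libraries, against 1.7 for Pecam1 and 0 for Cdh5 and Kdr. The summed level of 5 preadipocyte markers was lower with ISO. It was 103 to 109 CPM against 143 to 167 with DMSO in knockdown cells. In rescued cells it was 104 to 151 against 153 to 173. With SR-3420 it was 136 to 146 without and 126 to 168 with Dox. The preadipocyte sum was mostly Pdgfrb (median 112 CPM, against 23.2 for Pdgfra). With ISO the median log2 value of the 3 tested genes of that list was 0.26 without and 0.36 with Dox. The list thus did not fall as a whole. The part of these shifts in the results below was not tested.

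Promoter windows from RefSeq (GRCm38.p6, from 250 bases before to 50 after the annotated start) are shown for Idh1, on which the main result turns, and for Me1, which passed the threshold in no comparison. The Idh1 window is that of the more upstream start in the table, chr1:65186430-65186729 on the minus strand, and the Me1 window is chr9:86695865-86696164, also on the minus strand. Capitals mark every match, on either strand, to 8 short motifs.
Idh1: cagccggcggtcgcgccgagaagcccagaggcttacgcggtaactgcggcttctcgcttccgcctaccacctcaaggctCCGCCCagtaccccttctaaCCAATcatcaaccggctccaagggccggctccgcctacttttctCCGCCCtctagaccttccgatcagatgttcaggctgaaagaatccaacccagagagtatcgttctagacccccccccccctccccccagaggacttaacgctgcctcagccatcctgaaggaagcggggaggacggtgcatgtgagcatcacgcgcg
Me1: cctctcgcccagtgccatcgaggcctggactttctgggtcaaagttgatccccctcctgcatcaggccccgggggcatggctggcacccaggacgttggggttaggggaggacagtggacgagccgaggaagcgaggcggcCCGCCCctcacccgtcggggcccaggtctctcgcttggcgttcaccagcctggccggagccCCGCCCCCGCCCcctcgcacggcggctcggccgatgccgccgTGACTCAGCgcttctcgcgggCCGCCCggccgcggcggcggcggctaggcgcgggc
The Idh1 window held a CCAAT box (CCAAT, in 37.4% of 32851 windows of this length) at -151 from the start, and GC boxes (GGGCGG, in 35.7%) on the reverse strand at -171 and -107. It had no match to the cAMP response element TGACGTCA (1.79% of windows), its shorter core TGACG (20.8%), the antioxidant response element TGACNNNGC (12.4%), the E-box CACGTG (7.15%), the sterol response element TCACCCCAC (0.551%) or the nuclear receptor core site AGGTCA (16.3%). The core lies within the full cAMP response element, so these counts overlap. The Me1 window held one antioxidant response element match, at -6, beside GC boxes at -109, -48, -42 and 16. A match describes letters in the window and is not evidence of a bound factor.

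At rest the set was carried by its cytosolic and mitochondrial isocitrate enzymes and by Pgd. Per kilobase of counted length, the level in DMSO knockdown cells was 13.9 ± 4.43 CPM per kb for Pgd, 11.1 ± 1.86 for Idh2 and 10.8 ± 0.58 for Idh1 (SD, n = 3). The ranges of these 3 genes overlapped, so their order was not resolved. The other 5 genes lay more than 10 times lower. Me1 had 0.945 ± 0.329 CPM per kb, H6pd 0.824 ± 0.245, Me2 0.614 ± 0.153 and Nnt 0.464 ± 0.0647, again with overlap between neighbours, and Me3 was the lowest at 0.0421 ± 0.00462. Depth followed this division only in part. Idh1 had 107 to 572 counts per library, Idh2 113 to 457 and Pgd 77 to 251. Me1, with its long counted length, had 82 to 209, close to Pgd. H6pd had 15 to 115, Nnt 11 to 66, Me2 8 to 35 and Me3 1 to 17. For Me2 and Me3 only large differences were therefore detectable.

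Idh1 lies on chromosome 1 at 65205190 to 65233053 (mm9, minus strand), and 25425 of its 27864 bases were counted, against 25334 annotated intron bases. No other annotated gene overlaps it. In knockdown cells Idh1 had 291, 263 and 270 CPM with DMSO, 176, 134 and 164 with ISO, and 289, 276 and 278 with SR-3420. The ISO libraries all lay below the DMSO libraries, and the SR-3420 libraries lay within the DMSO range. In rescued cells Idh1 had 275, 243 and 224 CPM with DMSO, 122, 123 and 174 with ISO, and 119, 113 and 107 with SR-3420. Both stimulated groups lay wholly below DMSO. In the order of group means, SR-3420 without Dox (281 ± 7.17 CPM) and DMSO without Dox (274 ± 14.8) overlapped, as did DMSO without and with Dox (247 ± 26.2). ISO without Dox (158 ± 21.8) and with Dox (140 ± 30) overlapped each other and lay apart from the groups above. SR-3420 with Dox was the lowest at 113 ± 5.9 CPM (110 without replicate 1) and did not overlap its neighbour, ISO with Dox.

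**Figure D1:**
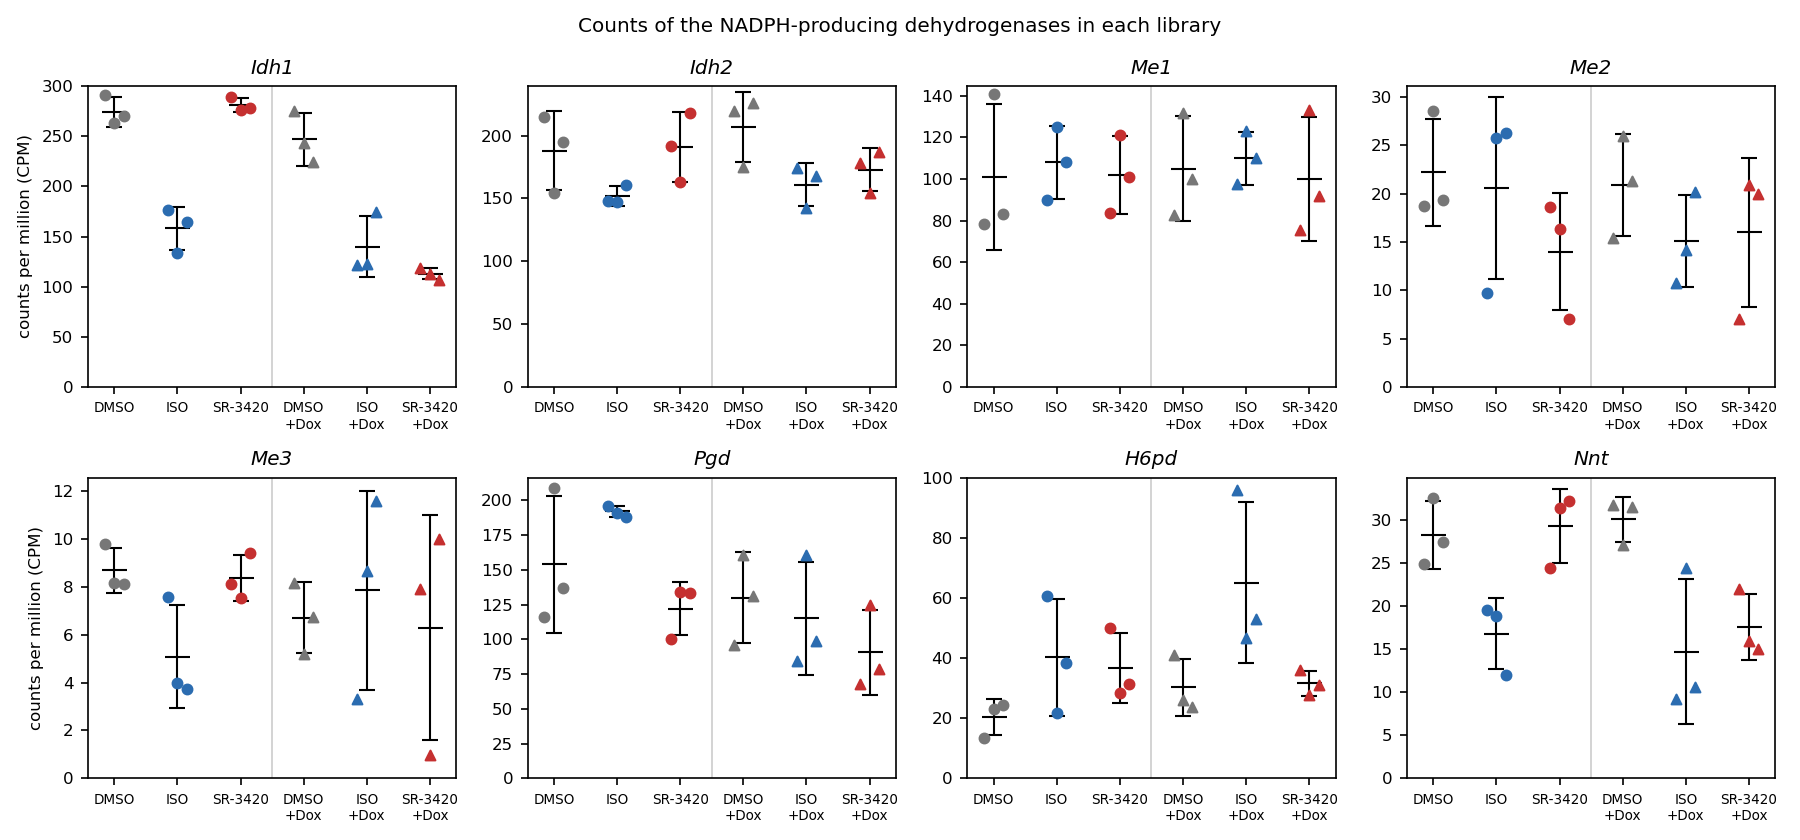
Counts (CPM) of the 8 genes in each library, by treatment, for knockdown cells (circles, left of the line) and rescued cells (triangles, right of the line). Points are libraries, bars are the mean and SD of 3. Idh1 is low in both ISO groups and in SR-3420 with Dox, and SR-3420 without Dox sits with DMSO.

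The first question was how the β-adrenergic stimulus changed these genes in knockdown cells. Idh1 stood at -0.80 on the log2 scale with ISO (SE 0.14, 95% interval -1.09 to -0.51), which is 42.5% lower, and at -0.96 to -0.69 over 15 other fits. No p is given, because the DMSO libraries enter the difference that chose the gene, while the ISO libraries do not. In cultures measured as a whole, fewer cells of a type and less RNA per cell cannot be told apart. H6pd rose by 1.00 (SE 0.36, adjusted p = 0.0377). With a log2 fold change of at least 1 required as well, H6pd was the 1 gene left, against 10.9% of all genes. With Idh1 this made 2 of 8 genes past the threshold, an adjusted p of 0.05, against 28% of all 10178 genes tested. The median log2 fold change was -0.18 over the 8 genes and -0.01 over all genes.

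With Dox the response of Idh1 to ISO was of like size. Idh1 stood at -0.84 on the log2 scale (SE 0.14, 95% interval -1.13 to -0.55), 44.1% lower, with no log2 value closer to 0 than -0.73 over 15 other fits, again without a p. The difference between the ISO responses with and without Dox was -0.04 (95% interval -0.45 to 0.37), given without a p for the reason that both DMSO groups also enter the SR-3420 difference on which Idh1 was chosen. Nnt and H6pd passed the threshold in rescued cells, which with Idh1 made 3 of 8 genes against 32.5% of all genes. Without ISO with Dox replicate 1, Idh1 alone remained past it. The DMSO libraries are also the controls of the SR-3420 comparisons, with and without Dox, so the ISO results of Idh1 share their controls with the values that chose it. The median over the 8 genes was -0.25, against -0.02 over all genes.

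With SR-3420 in knockdown cells Idh1 stood at a log2 fold change of 0.03 (SE 0.13, 95% interval -0.24 to 0.31). None of the 8 genes passed the threshold there by edgeR, and 0.766% of all genes did. DESeq2 and limma-voom also called 0, and the count at an unadjusted p under 0.05 was 1. With no filter on low counts the count was 1, and with the replicate block it was 1 against 2.34% of all genes, H6pd in each case. In rescued cells Idh1 was lower by -1.14 on the log2 scale with SR-3420 (SE 0.15, 95% interval -1.43 to -0.84), 54.5% lower, and by -1.17 without replicate 1 of that group. It was the 1 gene of 8 past the threshold, against 9.9% of all genes, a contrast from which nothing is read because it led to the choice of the set. The median over the 8 genes was -0.31 and over all genes -0.01. The difference between the SR-3420 responses of Idh1 with and without Dox was -1.17 (SE 0.20, 95% interval -1.57 to -0.76), with a range of -1.24 to -1.08 when each of 12 libraries was left out and -1.20 without SR-3420 with Dox replicate 1. Idh1 was again the 1 gene past the threshold, against 0.757% of all genes, and this contrast is likewise descriptive.

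Between the stimuli in rescued cells, Idh1 was higher with ISO than with SR-3420 by 0.30 on the log2 scale (SE 0.15, 95% interval -0.01 to 0.61), given without a p because SR-3420 in these cells chose the gene, and by 0.35 without SR-3420 with Dox replicate 1. ISO and SR-3420 were applied at different concentrations. Dox without a stimulus left Idh1 at -0.15 (SE 0.14, 95% interval -0.43 to 0.14), given without a p because both DMSO groups enter the difference that chose the gene. None of the 8 genes passed in that comparison, by edgeR, DESeq2 or limma-voom, 0 had an unadjusted p under 0.05, and 1.18% of all genes passed. Dox did move other genes. In the interferon-stimulated list the summed level was 221 to 328 CPM in DMSO knockdown cells and 1043 to 2040 CPM in DMSO rescued cells, and its part in the Dox comparisons was not tested.

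**Figure D2:**
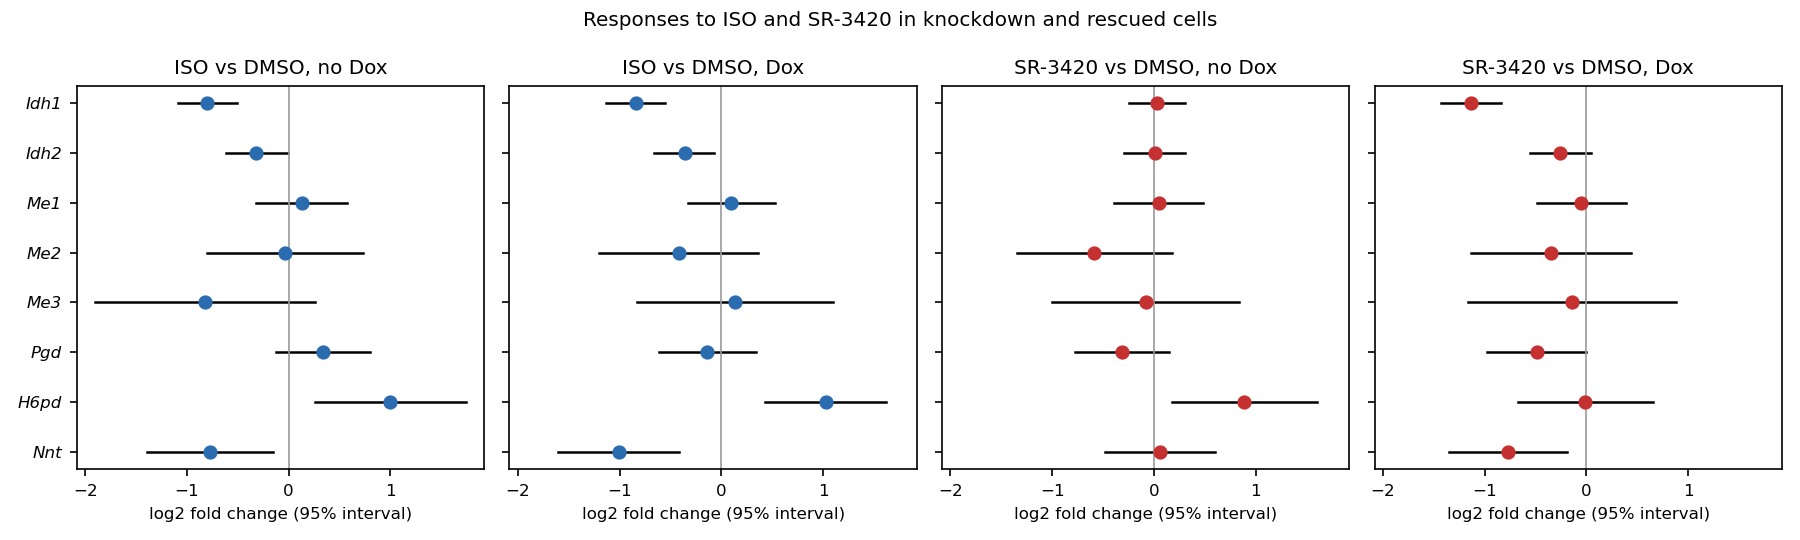
Log2 fold change with its 95% interval for each of the 8 genes, for ISO and SR-3420 against DMSO in knockdown and rescued cells. ISO and SR-3420 within one kind of cell share their DMSO libraries. Idh1 sits near -0.80 and -0.84 with ISO, at 0.03 with SR-3420 without Dox and at -1.14 with Dox.

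Idh2, the mitochondrial counterpart of Idh1, lies on chromosome 7 at 87239734 to 87260236 (mm9, minus strand). It had 215, 154 and 195 CPM with DMSO, 148, 147 and 161 with ISO, and 192, 163 and 218 with SR-3420 in knockdown cells. In rescued cells it had 220, 175 and 226 CPM with DMSO, 174, 142 and 168 with ISO, and 178, 154 and 187 with SR-3420. Only the ISO libraries with Dox lay wholly below their DMSO group. The log2 fold change with ISO was -0.32 (SE 0.15, adjusted p = 0.118, edgeR) without Dox and -0.36 (SE 0.15, 95% interval -0.66 to -0.07, adjusted p = 0.0557) with Dox. With the replicate number as a block the latter was -0.36 with an adjusted p = 0.00671, and 4 of the 8 genes then passed, against 39.5% of all genes. With SR-3420 it was 0.01 without Dox (95% interval -0.29 to 0.31) and -0.26 with Dox (95% interval -0.56 to 0.04), or -0.28 without replicate 1. Changes of Idh2 as large as the difference of Idh1 with ISO lie outside each of these intervals.

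The level of Idh1 relative to Idh2 also varied between groups. Per kilobase, the ratio of Idh1 to Idh2 was 0.983 ± 0.131 in DMSO, 0.691 ± 0.0927 in ISO and 0.989 ± 0.141 in SR-3420 knockdown cells (SD, n = 3). It was 0.802 ± 0.134, 0.575 ± 0.111 and 0.437 ± 0.0544 in rescued cells. The ranges of ISO and DMSO did not overlap without Dox (0.605 to 0.789 against 0.896 to 1.13) but did with Dox (0.463 to 0.686 against 0.657 to 0.92). Without replicate 1 the mean with SR-3420 and Dox was 0.434. The ratio carries the Idh1 values that led to the choice of the set, and no test was made.

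Nnt, on chromosome 13 at 120123124 to 120197818 (mm9, minus strand), fell with ISO in rescued cells, at a much lower level than Idh1. It had 24.9, 32.6 and 27.4 CPM with DMSO, 19.5, 18.8 and 12 with ISO, and 24.4, 31.4 and 32.2 with SR-3420 in knockdown cells. In rescued cells it had 31.8, 27.1 and 31.5 CPM with DMSO, 9.17, 24.4 and 10.6 with ISO, and 22, 15.9 and 15 with SR-3420. The stimulated libraries lay below DMSO in both ISO groups and in SR-3420 with Dox. Nnt fell by 1.01 on the log2 scale with ISO and Dox (SE 0.29, 95% interval -1.60 to -0.42, adjusted p = 0.00756, edgeR). Without ISO with Dox replicate 1 the value was -0.75 (adjusted p = 0.0682), without replicate 3 it was -0.82 (adjusted p = 0.0526), and without replicate 2 the lowest value, -1.59, was reached. In knockdown cells the value was -0.77 (SE 0.30, adjusted p = 0.0589), and with SR-3420 0.06 (95% interval -0.48 to 0.60). The SR-3420 value with Dox, a description, was -0.77 (SE 0.29), and -0.97 without replicate 1.

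The malic enzymes gave no difference past the threshold in any comparison. Me1 lies on chromosome 9 at 86474970 to 86589947 and Me3 on chromosome 7 at 96781328 to 97002869 (mm9). Me1 had 78.3, 141 and 83.2 CPM with DMSO, 89.7, 125 and 108 with ISO, and 83.6, 121 and 101 with SR-3420 in knockdown cells, and each stimulated group overlapped DMSO. In rescued cells its groups ran from 82.8 to 132, 97.5 to 123 and 75.6 to 133 CPM. In every group replicate 2 held the highest Me1 value. The log2 fold changes of Me1 were 0.13 (95% interval -0.32 to 0.57) and 0.10 (-0.33 to 0.53) with ISO and 0.05 (-0.39 to 0.48) and -0.05 (-0.49 to 0.39) with SR-3420, without and with Dox. The last of these was 0.13 without SR-3420 with Dox replicate 1. Me2 had 7.03 to 28.6 CPM and Me3 0.994 to 11.6 CPM over all libraries. The ISO response of Me3 in knockdown cells, -0.82, had a 95% interval from -1.90 to 0.26, which shows how little these counts resolve.

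Pgd, the second NADPH-producing step of the pentose phosphate pathway, lies on chromosome 4 at 148524094 to 148540816 (mm9, minus strand). It had 116, 209 and 137 CPM with DMSO, 196, 191 and 188 with ISO, and 100, 134 and 133 with SR-3420 in knockdown cells. In rescued cells it had 95.8, 161 and 131 CPM with DMSO, 84.2, 161 and 99.1 with ISO, and 67.7, 125 and 78.9 with SR-3420. Each stimulated group overlapped its DMSO group, and in the rescued cells replicate 2 was the highest of each group. Log2 fold changes with ISO were 0.34 (SE 0.22, adjusted p = 0.277, edgeR) without Dox and -0.14 (SE 0.23, adjusted p = 0.694) with Dox. Leaving out 1 library moved them from 0.15 (DMSO replicate 1) to 0.61 (DMSO replicate 2) and from -0.44 (ISO replicate 2) to 0.06 (DMSO replicate 2). The difference between them was -0.47 (95% interval -1.13 to 0.18). With SR-3420, as descriptions, they were -0.31 (SE 0.23) without Dox and -0.49 (SE 0.24) with Dox. The latter ran from -0.79 without SR-3420 with Dox replicate 2 to -0.30 without DMSO with Dox replicate 2, and leaving out replicate 1 of that SR-3420 group gave -0.31. A replicate block gave -0.51. With that block Idh1, Pgd and Nnt, 3 of the 8 genes, passed the threshold for SR-3420 with Dox, against 15.4% of all genes, and nothing is read from this count, since this contrast chose the set.

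H6pd, which makes NADPH in the lumen of the endoplasmic reticulum, lies on chromosome 4 at 149353583 to 149383132 (mm9, minus strand) and was the one gene of the set that rose. It had 13.3, 23.1 and 24.3 CPM with DMSO, 60.5, 21.8 and 38.3 with ISO, and 49.9, 28.5 and 31.4 with SR-3420 in knockdown cells. In rescued cells it had 40.9, 26 and 23.6 CPM with DMSO, 95.9, 46.5 and 52.9 with ISO, and 36, 27.8 and 31 with SR-3420. The ISO libraries with Dox and the SR-3420 libraries without it lay wholly above their DMSO groups, and ISO replicate 2 without Dox fell inside the DMSO range. H6pd is also on a gene list that the study chose on these libraries, so its direction here is not independent evidence.

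The log2 fold change of H6pd with ISO was 1.00 (95% interval 0.26 to 1.74, adjusted p = 0.0377, edgeR) without Dox and 1.03 (95% interval 0.43 to 1.62, adjusted p = 0.00765) with Dox, with a difference of 0.03 (SE 0.50, adjusted p = 0.992). Without ISO replicate 1 the values were 0.64 (adjusted p = 0.257) and 0.63 (adjusted p = 0.129), so each call was lost without replicate 1 of its own ISO group. Without Dox the call was also lost when DMSO replicate 1 (0.73, adjusted p = 0.205), DMSO replicate 2 (1.10, adjusted p = 0.0501), DMSO replicate 3 (1.18, adjusted p = 0.0524) or ISO replicate 3 (1.04, adjusted p = 0.0667) was left out, and with library totals only (0.84, adjusted p = 0.0806) or limma-voom (0.93, adjusted p = 0.0827). With SR-3420 H6pd was at 0.89 (SE 0.35) without Dox. With Dox the SR-3420 value was -0.01 (SE 0.32), or -0.12 without replicate 1. In rescued cells H6pd was higher with ISO than with SR-3420 by 1.04 (SE 0.30, 95% interval 0.42 to 1.65, adjusted p = 0.0145), the 1 gene of 8 past the threshold against 19.8% of all genes. That call was lost without ISO with Dox replicate 1 (0.64, adjusted p = 0.174) and was kept without SR-3420 with Dox replicate 1 (1.17, adjusted p = 0.0229). For the difference between the ISO responses with and without Dox, 0 of the 8 genes passed by edgeR, DESeq2 or limma-voom, 0 had an unadjusted p under 0.05, and 2.18% of all genes passed.

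Summed per kilobase, the 8 genes reached 38.7 ± 2.81 CPM per kb in DMSO, 36 ± 1.53 in ISO and 36.7 ± 1.79 in SR-3420 knockdown cells (SD, n = 3). In rescued cells the sum was 37 ± 1, 29.8 ± 1.84 and 25.8 ± 2.07. The stimulated sums with Dox lay wholly below DMSO with Dox (28 to 31.7 and 24.1 to 28.1 against 35.9 to 37.9), whereas without Dox the ranges of ISO (34.3 to 37.3) and DMSO (36.9 to 42) overlapped. Idh1 made up 28 ± 3.23% of the sum in DMSO knockdown cells, 17.2 ± 1.68% with ISO and 30.1 ± 1.91% with SR-3420. With Dox its share was 26.3 ± 3.37%, 18.5 ± 4.06% and 17.3 ± 1.87%. In knockdown cells with ISO, Pgd stood at 17.3 ± 0.326 CPM per kb against 13.9 ± 4.43 with DMSO, a difference that did not pass the test. Without replicate 1 the SR-3420 mean with Dox was 26.8 for the sum and 16.2% for the share. The sum was not tested, and it measures RNA, not enzyme or NADPH.

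**Figure D3:**
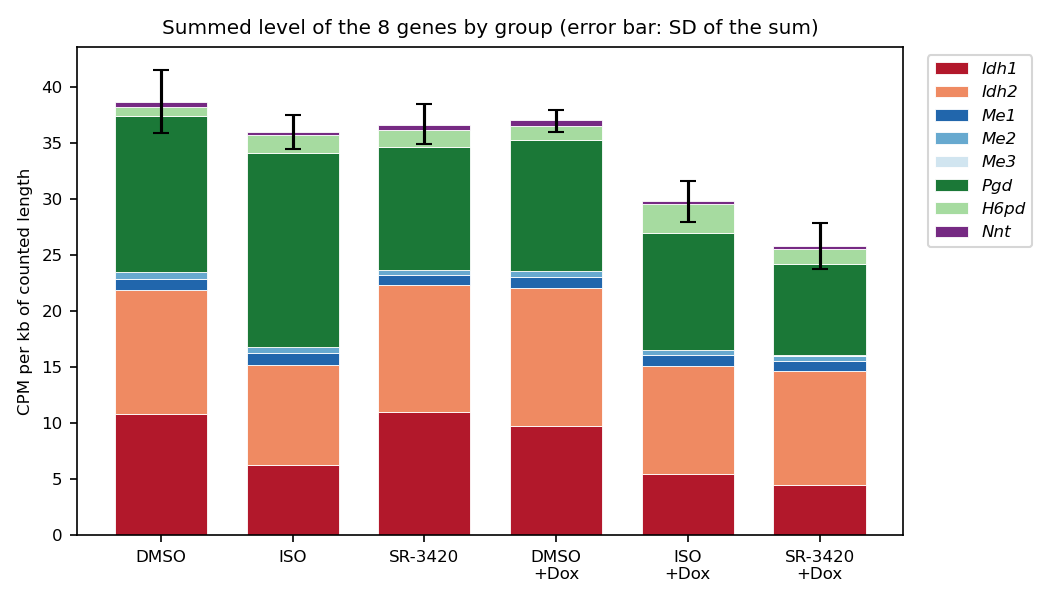
Mean level of each of the 8 genes, stacked, in CPM per kilobase of counted length, by group. The error bar is the SD of the sum over 3 libraries. The sum is 38.7 in DMSO and 36 in ISO knockdown cells and 37, 29.8 and 25.8 in DMSO, ISO and SR-3420 rescued cells, with Idh1, Idh2 and Pgd making up most of each bar.

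Genes that supply or use the substrates of these enzymes were described from lists. Among 14 genes of citrate, malate and isocitrate metabolism, 6 rose and 1 fell with ISO in knockdown cells, against 14.5% and 13.5% of all genes, and 9 rose and 1 fell in rescued cells, against 16.4% and 16.1%. Without Dox the 6 became 4 without DMSO replicate 2, ISO replicate 1 or ISO replicate 3, 3 with library totals only and 4 to 8 over all fits without 1 library. Mdh1 (0.37) lost its call in 10 of 15 alternatives and Fh1 (0.49) in 4 of 15. With Dox the 9 became 6 with library totals only and 8 to 9 without 1 library. The list medians were 0.31 and 0.50 on the log2 scale, beside -0.01 and -0.02 for all genes. Idh3a, the catalytic subunit of the NAD-linked mitochondrial isocitrate dehydrogenase, had 201, 147 and 204 CPM with DMSO and 371, 292 and 396 with ISO in knockdown cells. With Dox it had 234, 157 and 198 against 652, 425 and 609 CPM. The groups were apart in both kinds of cell. Idh3a rose by 0.93 (SE 0.18, adjusted p = 0.000318, edgeR) and by 1.50 (SE 0.18, adjusted p = 1.62e-07), and kept both calls in all 15 other fits. With ISO the NAD-linked Idh3a thus rose where the NADP-linked Idh1 was lower. With SR-3420, as descriptions, Idh3a had 301, 209 and 253 CPM without Dox, wholly above DMSO, and a log2 value of 0.46 (SE 0.18), which was past the threshold with the replicate block (0.47) only.

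The other subunits Idh3b and Idh3g were named after their values were seen. With ISO against DMSO they stood at 0.67 (adjusted p = 0.00324) and 0.23 (adjusted p = 0.307, edgeR) without Dox. With Dox their ISO responses were 0.65 (adjusted p = 0.00219) and 0.43 (adjusted p = 0.0319). Citrate synthase, Cs, rose with ISO in rescued cells from 279 ± 16.8 to 475 ± 45.7 CPM (0.77, adjusted p = 1.09e-05, edgeR). Its ISO response in knockdown cells was 0.31 (adjusted p = 0.0603).

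The cytosolic aconitase Aco1, also known as iron regulatory protein, followed another pattern. In knockdown cells it had 263, 298 and 261 CPM with DMSO, 144, 161 and 149 with ISO, and 384, 433 and 364 with SR-3420. The ISO group lay wholly below DMSO and the SR-3420 group wholly above. In rescued cells it had 316, 335 and 265 CPM with DMSO, 275, 302 and 264 with ISO, and 398, 432 and 363 with SR-3420. Aco1 fell by 0.86 on the log2 scale with ISO without Dox (SE 0.14, adjusted p = 2.07e-05, edgeR) and was at -0.13 with Dox (adjusted p = 0.478). The difference between these responses was 0.73 (SE 0.19, 95% interval 0.35 to 1.11, adjusted p = 0.0313), a call lost in 9 of 21 alternatives, 7 of them fits without 1 library, with values from 0.65 to 0.80. With SR-3420 without Dox, Aco1 stood at 0.53 (SE 0.13), the 1 gene of the list past the threshold there, against 0.766% of all genes, a call lost in each of the 6 fits without 1 library (0.45 to 0.59). With Dox Aco1 stood at 0.38 (SE 0.13), again with SR-3420 wholly above DMSO, and at 0.38 without replicate 1 of that SR-3420 group. There it passed the threshold with the replicate block, DESeq2 and limma-voom (0.38 in each) but not by edgeR without the block.

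**Figure D4:**
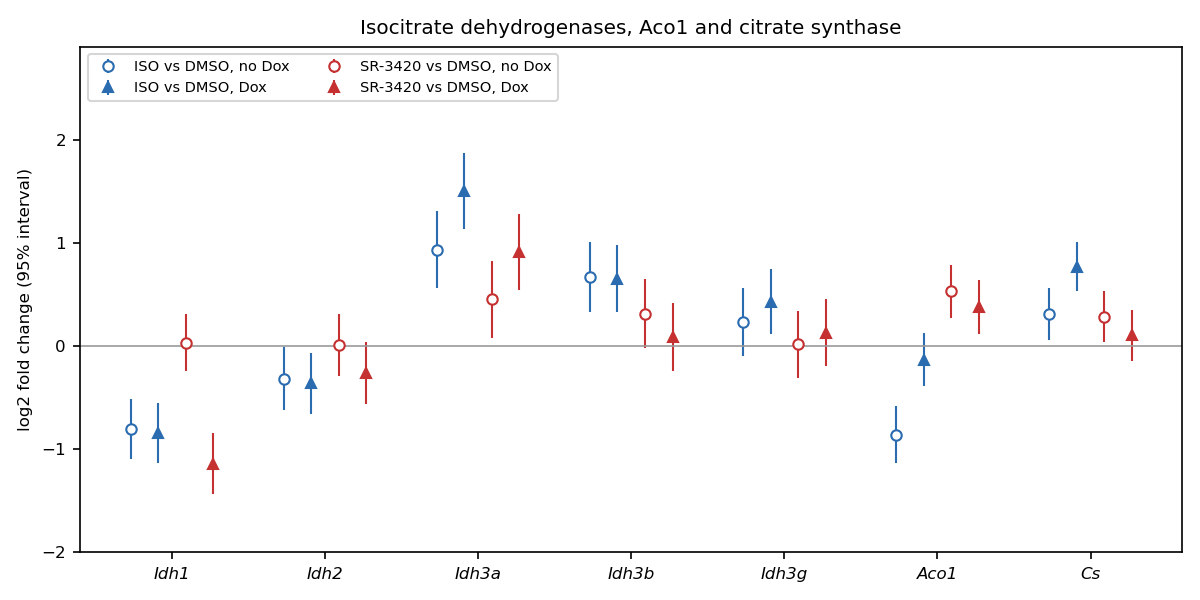
Log2 fold change with its 95% interval for the isocitrate dehydrogenases, Aco1 and citrate synthase, for ISO (blue) and SR-3420 (red) against DMSO without Dox (open circles) and with Dox (triangles). With ISO, Idh1 lies below 0 and Idh3a (0.93 and 1.50) above it in both kinds of cell. Aco1 is at -0.86 without Dox and -0.13 with Dox.

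In rescued cells 7 of the 14 genes were higher with ISO than with SR-3420 and 1, Aco1, was lower, against 10.4% and 9.43% of all genes. Examples were Cs (0.66, adjusted p = 0.000174, edgeR), the fumarase gene Fh1 (0.75, adjusted p = 0.000719) and the malate dehydrogenase gene Mdh1 (0.68, adjusted p = 0.000925). Without SR-3420 with Dox replicate 1 these were 0.67, 0.82 and 0.61. With SR-3420 in rescued cells 2 of the 14 genes were called higher and 1 lower, against 6.53% and 3.37% of all genes, and 1 to 2 were higher over the 6 fits without 1 library. Idh3a stood at 0.91 (SE 0.18) and Acly, which splits citrate into acetyl-CoA and oxaloacetate, at -0.67 (SE 0.14), and these stayed at 0.79 and -0.71 without replicate 1. Acly responded to ISO differently by Dox, with 0.31 (adjusted p = 0.0858) without and -0.43 (adjusted p = 0.0205) with Dox and a difference of -0.74 (SE 0.20, adjusted p = 0.0404). The ISO call with Dox was lost in 4 of 6 fits without 1 library (-0.47 to -0.37). The call of the difference was lost in 12 of 21 alternatives, 10 of them fits without 1 library (-0.85 to -0.62).

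The list of NADPH users also held the carboxylases Acaca and Acacb, which use ATP and not NADPH. Of its 12 tested genes 3 rose and none fell with ISO without Dox, against 14.5% and 13.5% of all genes, and 1 rose and 1 fell with Dox, against 16.4% and 16.1%. Leaving out the carboxylases, a choice made after the values were seen, 2 of 10 rose without Dox, and none rose and 1 fell with Dox. Acaca, which supplies malonyl-CoA for fatty acid synthesis, rose with ISO in both kinds of cell. It went from 180 ± 24 to 390 ± 32.1 CPM (log2 1.12, adjusted p = 1.68e-06, edgeR) without Dox. With Dox it went from 169 ± 28.6 to 285 ± 34.7 CPM (0.77, adjusted p = 0.000213, edgeR). Por, which passes electrons from NADPH to cytochromes P450, rose with Dox from 229 ± 17.8 to 321 ± 22.2 CPM in DMSO (0.49, adjusted p = 0.0399), a call lost in 5 of 6 fits without 1 library (0.43 to 0.54). With SR-3420 and Dox, 1 gene was called higher and 2 lower, with Por at 0.72 (SE 0.12), and at 0.73 without replicate 1 of that group.

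The remaining lists are set beside the same shares of all genes for ISO, 14.5% higher and 13.5% lower without Dox and 16.4% and 16.1% with Dox. Of 8 tested pentose phosphate genes outside the set, 1 rose with ISO without Dox and 2 with Dox, with medians of -0.04 and 0.11. Of 7 tested genes of the folate NADPH route, 1 rose and 1 fell without Dox and 3 rose with Dox, with medians of 0.16 and 0.33. Of 3 genes for NAD kinases and glutamate dehydrogenase, none passed without Dox, and 1 rose and 1 fell with Dox. The 2 partners of H6pd in the endoplasmic reticulum passed in no comparison, with medians of -0.18 and -0.48 with ISO. The use of strand in counting is not stated, so reads of Me1, Me3, Fh1, Idh3b, Acaca and Por cannot be told from those of a feature annotated on the opposite strand within their span.

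The genes whose levels across libraries were most like Idh1 were looked up over all 10178 genes tested. By Pearson's r of log2 CPM over 18 libraries, these were Fbxo9 (0.913), Cbx2 (0.911), Chd4 (0.899), Plxna3 (0.892) and Wdyhv1 (0.892). Over the 6 group means the same genes gave 0.93, 0.938, 0.927, 0.955 and 0.964. Within the set, r with Idh1 was 0.685 for Nnt, 0.528 for Idh2, 0.429 for Me3, 0.225 for Pgd, 0.129 for Me2, -0.148 for Me1 and -0.354 for H6pd. The points share libraries, depth and controls, and the values are descriptions.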

How the data were processed

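Counts per gene, gene positions and counted lengths were deposited by the authors for 18 RNA-seq libraries. Per the study's methods, reads were aligned to mm9 with STAR 2.4.2a, reduced with HOMER to one read per position and length, and counted with iRNA-seq under its gene option. The deposited lengths are used here in bases, without change. Groups came from the sample titles.

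Counts were analysed in edgeR 4.0.16 (R 4.3.3) with TMM scaling, the filterByExpr filter (10178 of 17672 genes kept) and the quasi-likelihood test, two-sided, with one mean per group over all 18 libraries and a common dispersion of 0.0176. The Benjamini-Hochberg adjustment ran over the 10178 genes, with a threshold of 0.05. CPM are counts per 1000000 counts of the scaled library size, and were divided by counted length to compare genes. Other scalings tried were library totals only, upper-quartile and RLE factors. Other fits were DESeq2 1.42.0, limma-voom (limma 3.58.1), a replicate block, the compared groups alone, and each library left out in turn. The low-count filter was also dropped or set to 10 counts in all libraries, and a log2 fold limit of 1 was added. Scripts were tested on simulated data. No pair of libraries within a group agreed within sampling noise. The study describes independent experiments.

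Same-numbered libraries deviated together in 36 of 45 pairs (r over 0.1, range 0.0386 to 0.277), and 18 of 18 libraries correlated best with their own number. All pairs of a comparison exceeded 0.1 for ISO with Dox and for SR-3420 with and without Dox. The numbers were thus taken to pair those samples, from the data rather than the labels. The main fit did not use this pairing. Adjusted p-values come from unpaired fits unless the replicate block is named.

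The set, its partner lists and the motifs were chosen with earlier results of these data known. Beside the set and Abhd5, up to 4 partner genes with the smallest p past the threshold in each comparison, and the 5 genes most like Idh1, were named. Some partner genes that this rule names are not reported here.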

Additional observations from a re-analysis of the deposited data

Results flagged for a closer look

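Idh1 stood out because its SR-3420 responses with and without Dox differed by the test of that difference, an interaction term in edgeR. The difference was -1.17 on the log2 scale, made up of 0.03 without Dox and -1.14 with Dox. With SR-3420 all 3 libraries with Dox lay below their DMSO group, and the 3 without Dox lay within theirs. This difference led to the choice of the genes described, so no p-value is given and it supports nothing further.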

How the results depend on the processing

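Of 1097 fold changes of the 8 genes recomputed under an alternative, 20 newly passed the threshold, 13 no longer passed it and the rest stayed on their side of it. No value past the threshold in either fit changed sign. Of those below it in both, 87 did, 2 of them by more than the SE (H6pd with SR-3420 and Dox to 0.35, Pgd with Dox to 0.01). Both ISO values of Idh1 stayed under a log2 fold limit of 1. With ISO without Dox the count of 2 genes became 1 with limma-voom, 1 with the log2 fold limit, 5 with the replicate block (Pgd 0.36, Nnt -0.78 and Idh2 -0.31 added, against 34.4% of all genes), 3 with library totals (H6pd lost, Nnt and Idh2 gained), 3 with upper-quartile factors, the 10-count filter or the compared groups alone (Nnt gained), and 1 to 2 without 1 library. With ISO and Dox the count of 3 became 4 with the replicate block, upper-quartile factors, library totals or the 10-count filter (Idh2 gained in each), 2 with the log2 fold limit and 1 to 4 without 1 library. With SR-3420 the count of 0 without Dox became 1 with no filter and 1 with the replicate block, both H6pd. With Dox the count of 1 became 2 with library totals, 2 with no filter and 3 with the replicate block. For ISO against SR-3420 the count of 1 became 0 to 1 without 1 library. The causes were not tested. The block changed no other call of the 8 genes.

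With library totals only, 4 of 48 levels per kilobase moved by more than 1 SD, Idh1 to 11.8 (DMSO without Dox), 11.6 (SR-3420 without Dox) and 4.02 (SR-3420 with Dox), and Pgd to 16.8 (ISO without Dox). That scaling shifted the median of all genes to -0.19 and -0.16 for ISO without and with Dox, -0.21 for SR-3420 with Dox and -0.14 for the difference of SR-3420 responses, and upper-quartile factors shifted ISO with Dox to -0.14. Genes called higher and lower over all genes went from 1471 and 1375 to 838 and 1936 for ISO without Dox, from 1669 and 1640 to 1111 and 2087 with Dox, from 665 and 343 to 322 and 701 for SR-3420 with Dox, and from 55 and 22 to 16 and 26 for the difference of SR-3420 responses. Calls over all genes rose with the block from 78 to 238 (SR-3420 without Dox), 1008 to 1568 (SR-3420 with Dox), 120 to 271 (Dox), 222 to 600 and 77 to 339 (differences of ISO and SR-3420 responses). Low counts limit Me2, Me3 and Nnt.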
